A study of Arabidopsis thaliana with 26 samples.

Results

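Developing leaves of Arabidopsis thaliana were compared 24 h and 2 h into a time course, with 4 arrays at 24 h and 4 at 2 h. These 8 arrays were chosen by the hour and the replicate number in their labels, out of 26 arrays in the series, and every probe set other than the array's own controls was described. The plants were of the accession Col-0 and were grown in a growth room on compost, with a 10 h light period, 20 °C and 50% humidity, in ambient CO2 and ambient light. Both groups came from leaf insertions 19 to 21, for which the labels name no transgene or mutation, and had the same treatment, the ambient arm of a study on how leaves signal irradiance and CO2 to each other. The rest of the series held developing leaves of 4, 12, 48 and 96 h and 2 arrays of mature leaves. RNA was measured with the Affymetrix ATH1 array, on which each probe set gives 1 brightness value (intensity) for a transcript.

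The labels do not state whether the numbered replicates were separate plants, so the p-values cover the spread between arrays only. For each probe set that spread was estimated from all 26 arrays in their 7 groups, not from these 8 alone. Nor do the labels state the clock time at which the hours began. The hours lie 22 h apart, so by the labels the leaves at 24 h were further into the course and may also have been taken at another time of day. Age and time of day cannot be told apart in this comparison.

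A developing leaf divides its cells first and then enlarges them while its chloroplasts take on photosynthesis. Histones and proteins of mitosis are made mostly in cycling cells, whereas genes of carbon fixation are known for high expression in expanding and mature mesophyll. Many leaf transcripts also follow the day through the circadian clock and light signalling, among them transcripts of photosynthesis, starch turnover, cold response and protein folding. In whole leaves, fewer cells of a type and less RNA per cell cannot be told apart.

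The arrays had median intensities of 42.4 to 44.6 at 24 h and 42.6 to 44.4 at 2 h. The 4 arrays at 24 h were less alike: each array's mean correlation with the others of its group, across probe sets, was 0.958 for 24 h replicate 1 and 0.968 to 0.972 for the other three, against 0.979 to 0.981 at 2 h. Replicate 1 at 24 h also had the highest mean intensity of the 8, 152 against 128 to 143, and the brightest probe set, at 7575. For actin, the control probe sets at the 3 prime end were compared with those at the 5 prime end as a sign of how intact the RNA was, and their log2 ratio was 1.71, 1.73, 2.52 and 2.60 at 24 h (replicates 1 to 4), against 2.43, 2.77, 2.72 and 2.72 at 2 h. The groups' means differed by -0.52 with an exact permutation p of 0.0857 (2-sided, 0.257 adjusted over 3 control genes), where 4 arrays against 4 allow no p below 0.0286.

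Of the markers of leaf mesophyll, RCA alone was named on the array, and its intensity was 2984 to 5878 at 24 h and 2177 to 2752 at 2 h. The stomatal lineage genes SPCH (77.1 to 147 at 24 h, 92.3 to 110.2 at 2 h), STOMAGEN (279 to 361 at 24 h, 280.0 to 316 at 2 h) and FMA (46.7 to 84.4 at 24 h, 47.1 to 69.5 at 2 h) passed the filter on low values, and MUTE (2.62 to 19.9 at 24 h, 1.66 to 17.7 at 2 h) did not. The meristem gene CLV3 stayed between 2.81 and 4.96 at 24 h and 1.89 and 4.23 at 2 h, and 2 root and 2 pollen markers lay under the filter. The root markers were EXPA7 (12.8 to 38.2 at 24 h, 22.5 to 26.6 at 2 h) and EXPA18 (25.97 to 47.03 at 24 h, 18.3 to 28.3 at 2 h). The pollen markers were AT5G45880 (17.7 to 29.4 at 24 h, 15.5 to 26.4 at 2 h) and AT5G07430 (1.47 to 5.63 at 24 h, 1.37 to 3.13 at 2 h). The filter is not a detection call, so it does not show that these transcripts were absent. No marker of flower, seed, vasculature or epidermis was named on the array, so those tissues were not checked.

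In all, 2856 of 13648 probe sets (20.9%) differed between 24 h and 2 h at an adjusted p under 0.05. Of these, 1384 were higher at 24 h (10.1% of those tested) and 1472 were lower (10.8%). Changes of at least 2-fold that passed numbered 77 higher (0.564%) and 77 lower (0.564%), so most changes were small. The values of the groups did not overlap for 1418 probe sets higher at 24 h (10.4%) and 1476 lower (10.8%). The median log2 fold change over all 13648 was -0.0023. The lists that follow hold 1 probe set per gene. Their counts are to be read against those of all 7365 named genes tested, of which 625 were higher and 747 lower. The rises among plastid-encoded, serine carboxypeptidase-like and thioredoxin genes lay not far from that share. Without 24 h replicate 1, 2233 probe sets passed, and with the actin ratio as a covariate 2301. Without 24 h replicates 1 and 2, which had the lowest actin ratios, 1969 passed. With a fit of the arrays of the 2 groups only, where the spread comes from those 8 arrays alone, 2028 passed.

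**Figure D1:**
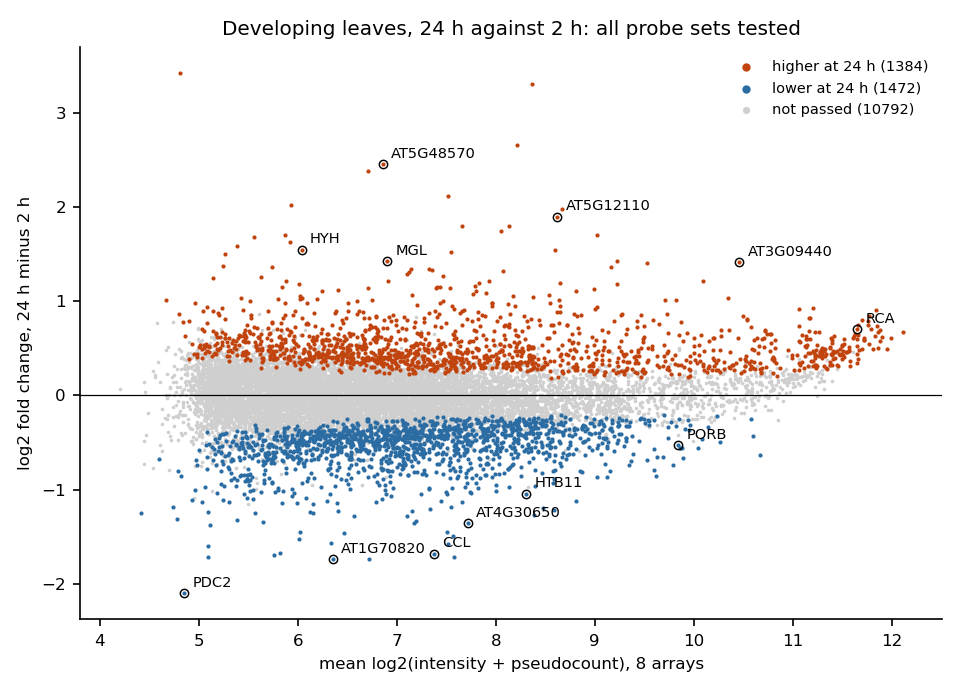
Each dot is 1 of 13648 probe sets. The x axis is its mean log2 level over the 8 arrays and the y axis its log2 fold change, 24 h minus 2 h, with 1384 higher and 1472 lower probe sets in colour and named genes ringed. At the bright end nearly all coloured dots lie above 0.

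Direction went with brightness. Among the 482 probe sets with a mean log2 level of 10 or more, 230 were higher at 24 h and 4 were lower, with a median log2 fold change of 0.26. Among the 2032 with a level from 8 to 10, 328 were higher and 299 lower, with a median of -0.01. With quantile normalization, which gives every array the same distribution, the brightest 482 had 72 higher, 57 lower and a median of -0.01. Without 24 h replicate 1, at the deposited scaling, they had 151 higher and 4 lower. These level classes were chosen after the values were seen. For bright transcripts, such as those of photosynthesis, the direction relative to all other transcripts therefore turns on the scaling, and the quantile value stands beside bright genes where they are described.

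The 5 probe sets with the largest rises that named no single gene included 247780_at, whose intensities were 94.3, 92.3, 70.02 and 96.3 at 24 h, against 2.59, 9.05, 1.23 and 5.99 at 2 h, and 261569_at, at 888, 1007, 1197 and 1078 at 24 h, against 136, 56.1, 135 and 98.2 at 2 h. Their groups lay far apart, where a lack of overlap was a condition of their selection. The log2 fold changes were 3.43 ± 0.23 and 3.31 ± 0.24 (SE). Since 247780_at lay near the bottom of the scale at 2 h, its fold depends on the pseudocount: with 21.7 in place of 4.35 the log2 fold change was 2.06, and that of 261569_at was 3.10. The largest fall without a named gene was that of 263548_at, at 117, 101, 135 and 64.8 at 24 h, against 526, 272, 287 and 337 at 2 h, with a log2 fold change of -1.72 ± 0.20 (SE, adjusted p = 1.01e-06).

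Among probe sets that named a single gene, the 25 largest rises without overlap ran from 2.11-fold to 5.50-fold and the 25 largest falls from 2.19-fold to 4.29-fold. Most of these genes carry a locus number and no described role in the annotation used here. AT5G12110 was at 1092, 698, 649 and 663 at 24 h, against 198, 194, 178 and 231 at 2 h, with a tight group at 2 h and 24 h replicate 1 above the other three, and its log2 fold change was 1.90 ± 0.17 (SE, adjusted p = 1.15e-08). AT3G56290 was at 497, 433, 478 and 519 at 24 h, against 112, 175, 142 and 139 at 2 h, with a log2 fold change of 1.75 ± 0.16 (SE, adjusted p = 2.55e-08). Among the falls, AT1G70820 was at 38.96, 46.5, 29.3 and 49.6 at 24 h, against 178, 167, 118 and 125 at 2 h, with -1.74 ± 0.15 (SE, adjusted p = 6.37e-09), and AT3G51660 at 56.8, 61.6, 56.1 and 40.9 at 24 h, against 202, 212, 180.4 and 158 at 2 h, with -1.73 ± 0.17 (SE, adjusted p = 6.49e-08). That the groups did not overlap for these 4 genes was a condition of their selection. The same holds for all other genes described below that are among the 25 largest rises or falls. These include AT5G48570, AT3G09440, AT2G20560, SGT1A, HYH, MGL, AT2G26690, TBL26 and scpl46. Among the falls they include CCL, PDC2, COR15A, AT4G30650, AT4G30660, CYP71B26 and AT2G28720. AT2G30600 was measured by 2 probe sets, 267523_at and 267524_at, and both were among the 25 largest falls, at -1.56 ± 0.20 and -1.14 ± 0.28 (SE).

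A gene of protein folding, AT5G48570, had the largest rise in the pathway lists. Of 8 measured genes of the heat shock and chaperone list 5 rose and none fell, with a median log2 fold change of 0.86, and the same counts held with quantile normalization, without 24 h replicate 1 and without 24 h replicates 1 and 2. AT5G48570, also named ROF2 and FKBP65, a heat-induced peptidyl-prolyl isomerase that binds chaperones, had intensities of 487, 235, 203 and 222 at 24 h, against 54.4, 55.9, 33.000 and 41.1 at 2 h. All arrays at 24 h lay above all at 2 h, and 24 h replicate 1 stood far above the other three. The log2 fold change was 2.46 ± 0.23 (SE, adjusted p = 3.37e-08). AT3G09440, of the same list, was at 2041, 2154, 2311 and 2748 at 24 h, against 934, 785, 849 and 870.3 at 2 h, with no overlap and a tight group at 2 h, and its log2 fold change was 1.42 ± 0.11 (SE, adjusted p = 1.16e-09) as deposited and 1.22 under quantile normalization.

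Hsp70-2, a chaperone of the HSP70 family that binds unfolded proteins, had intensities of 310.2, 280.4, 245 and 269 at 24 h, against 153, 139, 144 and 145 at 2 h. It was higher on every array at 24 h, by 0.90 ± 0.09 (SE, adjusted p = 1.05e-07) on the log2 scale. AT2G20560 was dimmer and rose, with intensities of 64.6, 63.6, 54.9 and 46.1 at 24 h, against 14.3, 28.1, 18.6 and 18.1 at 2 h and a log2 fold change of 1.37 ± 0.18 (SE, adjusted p = 6.04e-06). AT1G54050 rose by 0.81 ± 0.17 (adjusted p = 0.00112). Hop2, a co-chaperone that links HSP70 and HSP90, was at 0.04 ± 0.11, ATHSP22.0 at 0.16 ± 0.18 and ATERDJ3B, a DnaJ-type co-chaperone of the endoplasmic reticulum, at -0.27 ± 0.10, and these did not pass. ATERDJ3B passed with array weights (adjusted p = 0.0402).

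A wider list of heat-associated genes, written from the annotation after values were seen, went in both directions. Of its 16 measured genes 7 rose and 4 fell, with a median of 0.13. SGT1A, a co-chaperone of HSP90, was at 223, 248, 290.0 and 245 at 24 h, against 124, 91.6, 85.7 and 88.9 at 2 h, and every array at 24 h was above every array at 2 h, with a log2 fold change of 1.34 ± 0.14 (SE, adjusted p = 1.97e-07). Rises were also measured for Fes1A, which acts on cytosolic HSP70 (0.65 ± 0.15), HSA32, needed for long-lasting acquired thermotolerance (0.55 ± 0.16), BZIP60, a transcription factor of the unfolded protein response (0.46 ± 0.13), BOB1, a small heat shock protein also needed for development (0.44 ± 0.11), and TIL, a temperature-induced lipocalin (0.29 ± 0.09). Falls were those of Fes1B (-0.58 ± 0.16), the mitochondrial DnaJ protein ATJ1 (-0.48 ± 0.14), Hop1 (-0.44 ± 0.10) and the chloroplast chaperonin subunit Cpn60beta4 (-0.33 ± 0.10). Within the families, Fes1A and Fes1B thus stood on opposite sides of 0, each past the threshold. Without 24 h replicate 1, 5 of the 16 rose and 3 fell, and without replicates 1 and 2, 5 rose and 1 fell.

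**Figure D2:**
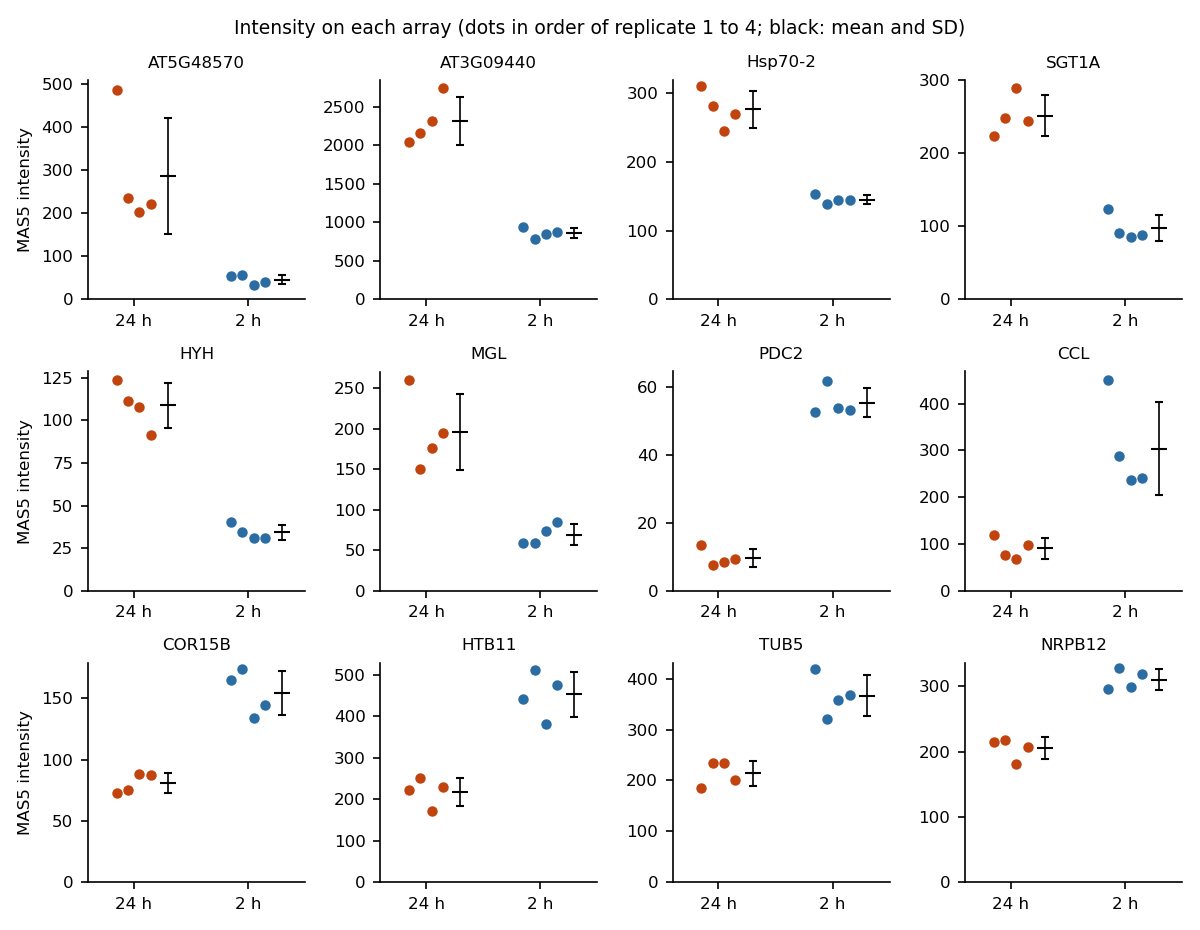
MAS5 intensity (y axis, from 0) on each array at 24 h and at 2 h for 12 genes, with dots in the order of replicates 1 to 4 and the mean and SD of 4 arrays in black. The groups do not overlap for any of the 12, and 24 h replicate 1 stands apart for AT5G48570. For AT5G48570, AT3G09440, SGT1A, HYH, MGL, PDC2 and CCL the lack of overlap was a condition of selection.

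Only 1 gene of the light signalling list and 1 of the clock output list were measured, HYH and CCL, and both passed. HYH, a bZIP transcription factor that acts with its close relative HY5 in light responses, was at 124, 111, 108 and 91.5 at 24 h, against 40.4, 34.8, 30.7 and 31.2 at 2 h. Its log2 fold change was 1.55 ± 0.16 (SE, adjusted p = 1.99e-07), and the groups were far apart. AFR, an F-box protein of phytochrome A signalling, is on neither list but among the 25 largest rises, which were selected to be without overlap. It was at 169, 136, 119 and 188 at 24 h, against 58.4, 77.3, 60.7 and 68.6 at 2 h. Its log2 fold change was 1.14 ± 0.15 (SE, adjusted p = 7.21e-06).

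CCL, whose transcript follows the clock and decays fast, was lower at 24 h. It was at 119.5, 76.9, 67.5 and 98.7 at 24 h, against 449.6, 289, 237 and 241 at 2 h, with 2 h replicate 1 the highest and all arrays at 24 h lower, a log2 fold change of -1.68 ± 0.16 (SE, adjusted p = 4.59e-08). GI, a clock component that acts in the evening, had overlapping groups at 40.2, 41.8, 52.6 and 60.9 at 24 h, against 60.1, 56.5, 52.1 and 51.4 at 2 h, with a log2 fold change of -0.17 ± 0.16 (SE, adjusted p = 0.492). AT5G52660, the other measured member of the clock list, was at 0.35 ± 0.14 (adjusted p = 0.0698), and passed under some alternatives, among them the array weights. The remaining 24 genes of the clock list had no probe set that named a single gene.

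Most measured cold-response genes were lower at 24 h. Of 6 measured genes of the cold and dehydration list 4 fell and none rose, with a median of -0.74. COR15A and COR15B code for related proteins that protect chloroplast membranes during freezing. COR15B was at 73.1, 75.3, 88.5 and 87.5 at 24 h, against 165, 174, 134 and 144 at 2 h, with every array at 24 h below every array at 2 h and a log2 fold change of -0.89 ± 0.19 (SE, adjusted p = 0.00114). COR15A was at 32.3, 24.995, 44.1 and 82.5 at 24 h, against 145, 107, 92.5 and 86.3 at 2 h, with 24 h replicate 4 just below the lowest array at 2 h, and its log2 fold change was -1.25 ± 0.31 (SE, adjusted p = 0.00456). AT4G30650 was at 145, 183, 120.2 and 81.02 at 24 h, against 376, 374, 319 and 268 at 2 h, without overlap, and fell by 1.35 ± 0.18 on the log2 scale (SE, adjusted p = 7.98e-06). Its neighbour in the numbering, AT4G30660, which is not on the list but is among the 25 largest falls, was at 85.5, 109.7, 96.9 and 118 at 24 h, against 370.3, 319.8, 279.9 and 285 at 2 h, with a log2 fold change of -1.57 ± 0.15 (SE, adjusted p = 2.57e-08). LTI30, a dehydrin, fell by less (-0.59 ± 0.20) and lost its call in 5 of the 8 fits that left out 1 array. COR47, another dehydrin, was at 0.15 ± 0.23, and STZ, a zinc finger repressor of stress responses, at 0.20 ± 0.20, and neither passed. Without 24 h replicate 1, 3 of the 6 fell, and without replicates 1 and 2, 2 fell.

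Most measured transcripts of carbon fixation and photorespiration rose as deposited. Of 4 Calvin cycle genes 3 rose, and the same number rose with quantile normalization, where the median was 0.25 rather than 0.62. PRK, which makes the CO2 acceptor ribulose bisphosphate, was at 3096, 1839.8, 1953 and 2085 at 24 h, against 1592, 1300.0, 1319 and 1366 at 2 h, all 24 h arrays above all 2 h arrays, with a log2 fold change of 0.66 ± 0.14 (SE, adjusted p = 0.00154) and 0.40 under quantile normalization. RCA, which reactivates Rubisco, was at 5878, 2984, 3513 and 4630.5 at 24 h, against 2576, 2177, 2613 and 2752 at 2 h, with 24 h replicate 1 highest, and had 0.70 ± 0.15 as deposited and 0.15 under quantile normalization. HPR, the peroxisomal hydroxypyruvate reductase of photorespiration, was at 2574, 1619, 1834 and 1807 at 24 h, against 1223, 987, 1007 and 1102 at 2 h, without overlap, with 0.84 ± 0.13 (SE, adjusted p = 5.70e-05) as deposited and 0.64 under quantile normalization. Of the 3 photorespiration genes 2 rose as deposited and 1 with quantile normalization.

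The light reactions were less settled. All 7 measured photosystem and antenna genes rose as deposited, with log2 fold changes from 0.42 to 0.59, but 2 rose with quantile normalization, where the median was 0.05, and 3 without 24 h replicate 1. LHCB4.3, the dimmest of them, was at 485, 435, 439.9 and 508 at 24 h, against 339, 425, 267 and 361 at 2 h and kept its fold change, 0.44 ± 0.14 as deposited and 0.46 under quantile normalization, but its call was lost in 4 of the 8 fits that left out 1 array. PSAN, a subunit of photosystem I, had 0.58 ± 0.11 as deposited and 0.27 under quantile normalization, and PSBY of photosystem II had 0.45 ± 0.10 and 0.05. In the chlorophyll list of 8 genes, AT1G74470, annotated as geranylgeranyl reductase, rose (0.50 ± 0.11, 0.12 under quantile normalization) and so did CHLM, a methyltransferase of the pathway (0.27 ± 0.08, 0.15), and neither passed with quantile normalization. The call of CHLM was also lost in 3 of the 8 fits that left out 1 array. PORB, a light-dependent protochlorophyllide reductase, fell under both. It was at 819, 780.4, 661 and 786 at 24 h, against 1247, 1006, 928 and 1232 at 2 h, without overlap, with a log2 fold change of -0.53 ± 0.14 (SE, adjusted p = 0.00998) as deposited and -0.58 under quantile normalization.

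Plastid-encoded transcripts ranged from dim to very bright, 35 of 68 having a mean log2 level of 10 or more, and their lists were written after values were seen. Of 46 plastid-encoded genes of photosynthesis and the NDH complex 6 rose and 1 fell, with a median of 0.11, and of 22 for gene expression and other functions 2 rose. With quantile normalization these counts were 1 rise and 1 fall, and 1 rise. Without 24 h replicate 1 they were 2 rises and 1 fall, and 1 rise, and without replicates 1 and 2, 9 rises and no fall, and 5 rises. psaB, a core protein of photosystem I, was at 5401, 2468, 3591 and 4935 at 24 h, against 2684, 1999, 2737 and 2775 at 2 h, where 24 h replicate 2 lay inside the range of 2 h. Its log2 fold change was 0.63 ± 0.17 (SE, adjusted p = 0.0103) as deposited and 0.08 under quantile normalization, and the call was lost without 24 h replicate 1 and without 2 h replicate 2. clpP, a subunit of the plastid protease, was at 3087, 2150.0, 2464 and 2876 at 24 h, against 1736, 1643, 1954 and 1721 at 2 h, without overlap, with 0.57 ± 0.11 (SE, adjusted p = 0.000569) and 0.27 under quantile normalization. petG, a small subunit of the cytochrome b6f complex, was dim, at 89.1, 64.2, 141 and 95.6 at 24 h, against 203, 190.1, 129 and 139 at 2 h, and fell under both, by 0.76 and 0.73 on the log2 scale, with overlapping arrays.

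**Figure D3:**
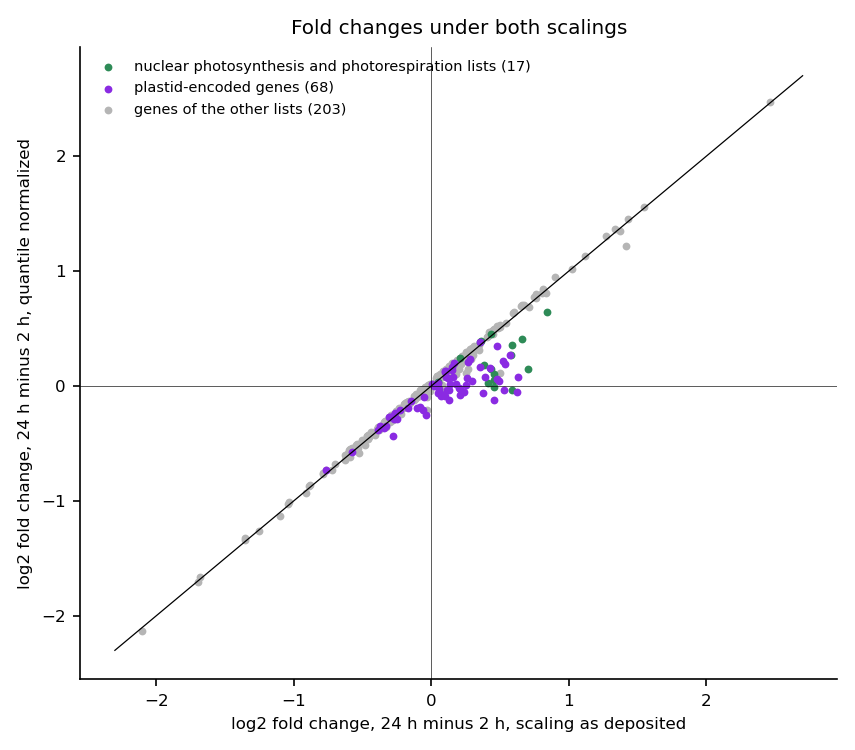
Each dot is a gene of the lists, with its log2 fold change (24 h minus 2 h) at the deposited scaling on the x axis and with quantile normalization on the y axis, and a line of equal values. Green dots are nuclear genes of photosynthesis and photorespiration and purple dots plastid-encoded genes. Of these, 13 of 17 green and 51 of 68 purple dots lie below the line, against 50 of 203 genes of the other lists, and LHCB4.1 is at 0.59 and -0.03.

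Most measured flavonoid genes rose. Of 4 measured genes of flavonoid synthesis 3 rose and none fell, under both scalings and without 24 h replicates 1 and 2 too. CHIL, a chalcone isomerase-like protein that helps the first steps of the pathway, was at 398, 358, 369 and 329 at 24 h, against 210.3, 199, 252 and 192 at 2 h, without overlap, with a log2 fold change of 0.76 ± 0.17 (SE, adjusted p = 0.00237). UGT78D2 and UGT78D1 attach glucose and rhamnose to flavonols. UGT78D2 was at 247, 303, 312 and 301 at 24 h, against 158, 221, 195 and 189 at 2 h, with 24 h replicate 1 the lowest of its group but above all arrays at 2 h, and had 0.60 ± 0.16 (SE, adjusted p = 0.00768). UGT78D1 was at 314, 356, 329.8 and 408 at 24 h, against 272, 288, 219 and 231 at 2 h and had 0.47 ± 0.12. DFR, the reductase on the way to anthocyanins, had overlapping groups and a value of -0.28 ± 0.28 that did not pass. The wider family of UGT glycosyltransferases, to which both belong, went both ways, with 4 of 20 measured genes higher and 2 lower. The other rises were those of GT72B1 (0.60 ± 0.16) and UGT76C1, which glucosylates cytokinins (0.45 ± 0.12, not passing without 2 h replicate 2). The falls were those of UGT85A2 (-0.55 ± 0.12) and UGT76E11 (-0.45 ± 0.13). The groups of UGT76E11 overlapped, and its call was lost without 24 h replicate 1 (adjusted p = 0.0592).

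Sugar transport and carbon use changed gene by gene. SWEET proteins let sugars pass across membranes. SWEET1, a glucose carrier of the plasma membrane, was at 407, 560.2, 509 and 464 at 24 h, against 310.4, 298, 329.8 and 269 at 2 h, with all 24 h arrays above those at 2 h and a log2 fold change of 0.67 ± 0.10 (SE, adjusted p = 3.64e-05). SWEET2, a carrier of the vacuole membrane, rose by 0.50 ± 0.12, and SWEET11, which exports sucrose for phloem loading, by 0.49 ± 0.17. SWEET17, a vacuolar fructose carrier, was at 236, 275, 287 and 211 at 24 h, against 383, 427, 363 and 303 at 2 h and fell (-0.54 ± 0.17 (SE, adjusted p = 0.0205)). The calls of SWEET11 and SWEET17 were lost in 5 and 3 of the 8 fits that left out 1 array. Of 7 measured SWEET and sucrose transporter genes 3 rose and 1 fell, and without 24 h replicate 1, 2 rose and none fell.

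Both measured genes of starch breakdown fell. DPE1, the plastid enzyme that recycles maltotriose, was at 68.6, 55.8, 55.4 and 59.2 at 24 h, against 126, 105, 91.8 and 103 at 2 h, without overlap, with a log2 fold change of -0.79 ± 0.11 (SE, adjusted p = 6.59e-06). PWD, which phosphorylates the starch granule, had -0.31 ± 0.09 (SE, adjusted p = 0.0149) with overlapping groups. The starch synthesis genes APL3 (-0.23 ± 0.18) and SBE2.2 (-0.17 ± 0.12) did not pass.

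PDC2, a pyruvate decarboxylase of ethanol fermentation, fell at 24 h. It was at 13.4, 7.65, 8.51 and 9.31 at 24 h, against 52.6, 61.9, 53.9 and 53.3 at 2 h, so that the group at 24 h lay near the bottom of the scale and the groups were far apart. The log2 fold change was -2.10 ± 0.28 (SE, adjusted p = 7.56e-06), the largest fall of a named gene at this pseudocount, and with a pseudocount of 21.7 in place of 4.35 it was -1.30, smaller than those of CCL (-1.51) and AT3G51660 (-1.48). AT4G17260, also of the fermentation list, fell (-0.57 ± 0.14 (SE, adjusted p = 0.00481)), and AT4G10270 did not pass (-0.41 ± 0.31).

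Both measured genes of the nitrogen and sulfur list rose, 1 that breaks methionine down (MGL) and 1 of sulfur assimilation (SIR). MGL, which cleaves methionine, was at 260.3, 151, 176 and 194 at 24 h, against 59.4, 58.8, 73.8 and 85.2 at 2 h, without overlap and with 24 h replicate 1 the highest, a log2 fold change of 1.43 ± 0.17 (SE, adjusted p = 1.85e-06). SIR, the sulfite reductase of the chloroplast, was at 498, 554, 582 and 604 at 24 h, against 421, 446, 425 and 389 at 2 h and rose by 0.41 ± 0.10 (SE, adjusted p = 0.00305). Of 6 glutathione S-transferases, which join glutathione to small molecules, 3 rose and 1 fell. GSTU16 was at 76.2, 72.4, 73.7 and 79.2 at 24 h, against 30.1, 28.2, 36.01 and 47.5 at 2 h, without overlap, with 1.03 ± 0.15 (SE, adjusted p = 1.52e-05). GSTU18 rose by 0.66 ± 0.12 and GSTL3 by 0.26 ± 0.09, and GSTU26 fell (-0.72 ± 0.15). GSTL3 was close to the threshold, with an adjusted p of 0.0488, and lost its call in 5 of the 8 fits that left out 1 array. Among 7 measured cytochrome P450 genes, CYP71B26 was at 71.9, 89.5, 72.8 and 114 at 24 h, against 220.0, 254, 204 and 228 at 2 h, every array at 24 h below every array at 2 h, with a log2 fold change of -1.36 ± 0.13 (SE, adjusted p = 6.49e-08). CYP71B35 rose (0.71 ± 0.23), but 24 h replicate 3 lay inside the range at 2 h and the call was lost without 24 h replicate 1, without 2 h replicate 2 and without 2 h replicate 3.

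AT2G26690, annotated as NPF6.2, a member of the nitrate and peptide transporter family, was at 242, 171, 201 and 238 at 24 h, against 97.98, 89.9, 73.7 and 74.8 at 2 h. All arrays at 24 h were above those at 2 h, with a log2 fold change of 1.29 ± 0.15 (SE, adjusted p = 1.01e-06).

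Most measured histone genes were lower at 24 h, and so were some genes of cell division. Of 10 measured core and linker histone genes 8 fell and none rose (median log2 fold change -0.66), and the counts without 24 h replicate 1 and without replicates 1 and 2 were 9 and 8. HTB11, a histone H2B, was at 222, 251, 171 and 229 at 24 h, against 441, 511, 382 and 476 at 2 h, without overlap, with a log2 fold change of -1.04 ± 0.10 (SE, adjusted p = 8.07e-08). HTB4 and HTB1, of the same class, had -0.63 ± 0.11 and -0.62 ± 0.12. HTB2, a further H2B gene, was at -0.35 ± 0.20 with 24 h replicate 1 above all arrays at 2 h, and did not pass. HTR12, the centromeric histone H3, was at 59.6, 42.1, 38.9 and 38.6 at 24 h, against 53.9, 31.7, 62.5 and 45.8 at 2 h, with the range at 24 h inside that at 2 h (-0.09 ± 0.18). AT2G28720 of the histone list was at 35.3, 35.9, 26.3 and 12.6 at 24 h, against 107, 120.4, 78.2 and 75.6 at 2 h, with 24 h replicate 4 the lowest, and had -1.70 ± 0.23 (SE, adjusted p = 8.01e-06).

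Of 10 genes of mitosis and cytokinesis 3 fell and none rose, and 2 fell without 24 h replicate 1. The chromosome-binding protein 3xHMG-box2 was at 162, 221, 219 and 241 at 24 h, against 354, 371, 325 and 407 at 2 h, without overlap, with -0.79 ± 0.15 (SE, adjusted p = 0.000516). BUB3.1, of the spindle checkpoint, was at 96.8, 95.5, 107 and 93.9 at 24 h, against 128, 166, 149 and 168 at 2 h, with -0.61 ± 0.12 (SE, adjusted p = 0.000772). The Aurora kinases AUR1 (0.11 ± 0.11), AUR2 (-0.13 ± 0.16) and AUR3 (-0.01 ± 0.13) did not pass. Of 7 genes of DNA replication and chromatin assembly 4 fell, 3 without 24 h replicate 1 and 1 without replicates 1 and 2. CHR17, a chromatin remodeller, was at 106, 137, 140.1 and 125 at 24 h, against 161, 166, 192 and 206 at 2 h, without overlap, with -0.50 ± 0.13 (SE, adjusted p = 0.00516).

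Some subunits of the nuclear RNA polymerases and some Sm-like (LSM) proteins were also lower. Both lists were written after values were seen. Of 9 measured polymerase subunits 5 fell and none rose, with a median of -0.47, and the same counts held with quantile normalization, without 24 h replicate 1 and without replicates 1 and 2. NRPB12, a small subunit shared between polymerases, was at 214, 218, 181 and 207 at 24 h, against 295, 328, 299.7 and 318 at 2 h, and every array at 24 h was below every array at 2 h, with a log2 fold change of -0.59 ± 0.11 (SE, adjusted p = 0.00046). NRPB6B and NRPB6A, near-identical forms of another shared subunit, had -0.59 ± 0.13 and -0.47 ± 0.10. NRPB7, of the stalk of polymerase II, had -0.58 ± 0.17, a call lost in 3 of the 8 fits that left out 1 array, and NRPC2, the second-largest subunit of polymerase III, had -0.47 ± 0.12. The large subunits of polymerase I, NRPA1 (-0.34 ± 0.16) and NRPA2 (-0.05 ± 0.13), did not pass.

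LSM proteins form rings that bind U6 RNA or messenger RNA marked for decay. Of 6 measured genes 3 fell, namely LSM3A, at 64.1, 57.9, 58.6 and 54.4 at 24 h, against 84.9, 93.5, 73.4 and 77.8 at 2 h (-0.46 ± 0.12 (SE, adjusted p = 0.00807)), LSM6B (-0.46 ± 0.14) and LSM1A (-0.29 ± 0.09). The calls of LSM6B and LSM1A were each lost in 3 of the 8 fits that left out 1 array, and 2 of the 6 fell with quantile normalization. Their paralogs LSM3B (-0.11 ± 0.19), LSM6A (-0.39 ± 0.19) and LSM1B (-0.08 ± 0.10) did not pass, and the difference between paralogs was not tested. PPR336 and PPR596, pentatricopeptide repeat proteins, which bind organelle RNA, were the only 2 measured genes of their list, and both fell. PPR336 had -0.60 ± 0.14 (SE, adjusted p = 0.00389) without overlap. PPR596 had -0.55 ± 0.14 (SE, adjusted p = 0.00616) with overlapping groups.

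The cytoskeleton and the cell wall gave changes in both directions. Of 7 tubulin genes 2 fell and 1 rose. The beta-tubulin gene TUB5 was at 186, 234, 234 and 202 at 24 h, against 419, 321, 357 and 367 at 2 h, without overlap, with -0.76 ± 0.15 (SE, adjusted p = 0.000488), whereas TUA6, the brightest tubulin, was at 1396, 1655, 1555 and 1490.1 at 24 h, against 1512, 1365, 1587 and 1787 at 2 h, and its -0.03 ± 0.08 as deposited and -0.20 under quantile normalization did not pass. TUB1 fell (-0.48 ± 0.17), a call lost in 6 of the 8 fits that left out 1 array. TUA1 rose (0.41 ± 0.11). Of 7 genes for expansins, which loosen the wall, and for xyloglucan endotransglucosylases, which rejoin its chains, EXPB1 and EXPB3 rose, EXPB3 without passing when 24 h replicate 4 or 2 h replicate 2 was left out. EXPB1 was at 114, 126, 136 and 162 at 24 h, against 74.1, 64.8, 86.1 and 87.6 at 2 h, with the lowest array at 24 h above the highest at 2 h, and had 0.75 ± 0.17 (SE, adjusted p = 0.00215).

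TBL proteins are a large family known for acetylating wall polysaccharides. Of 15 measured genes 3 rose and 2 fell. TBL26 was at 257, 264, 265 and 294 at 24 h, against 119, 122, 118 and 82.8 at 2 h, with a tight group at 24 h and 2 h replicate 4 below the others, and had 1.27 ± 0.21 (SE, adjusted p = 8.56e-05). TBL37 rose by 0.76 ± 0.16 and TBL19 by 0.50 ± 0.18, and TBL39 (-0.50 ± 0.16) and TBL41 (-0.46 ± 0.16) fell. TBL19, TBL39 and TBL41 lost their calls in 5, 4 and 7 such fits. Of 14 serine carboxypeptidase-like genes 2 rose, scpl46 at 82.000, 117, 143 and 151 at 24 h, against 54.6, 47.9, 71.4 and 42.2 at 2 h (1.12 ± 0.23 (SE, adjusted p = 0.000939)) and scpl29 (0.29 ± 0.09).

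Few hormone genes were measured. GH3.3, which joins auxin to amino acids, was at 35.2, 70.04, 71.5 and 23.4 at 24 h, against 76.8, 81.4, 115 and 87.97 at 2 h, with 24 h replicates 1 and 4 lowest, and had -0.91 ± 0.27 (SE, adjusted p = 0.017). This call was lost without 24 h replicate 1, without 24 h replicate 4 and without 2 h replicate 3, with log2 fold changes of -0.80, -0.63 and -0.79, and with array weights. IAA18, a repressor of auxin response, was at 197, 206, 207 and 228 at 24 h, against 162, 163, 146 and 151 at 2 h, without overlap, with 0.42 ± 0.08 (SE, adjusted p = 0.000286). The defensin genes PDF1.2 and PDF1.2b, known as markers of jasmonate and ethylene response, did not pass. PDF1.2 was at 71.3, 344, 216 and 186 at 24 h, against 49.1, 50.6, 579 and 64.5 at 2 h, where 2 h replicate 3 exceeded every array at 24 h. Without that array its log2 fold change was 1.63 (adjusted p = 0.0468). None of 4 measured WRKY factors passed, and of 9 thioredoxins and peroxiredoxins the plastid thioredoxin ATHM2 passed as deposited (0.25 ± 0.08) but not under quantile normalization (0.11, adjusted p = 0.192), and TO2 fell (-0.38 ± 0.12). The calls of ATHM2 and TO2 were lost in 4 and 3 of the 8 fits that left out 1 array.

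**Figure D4:**
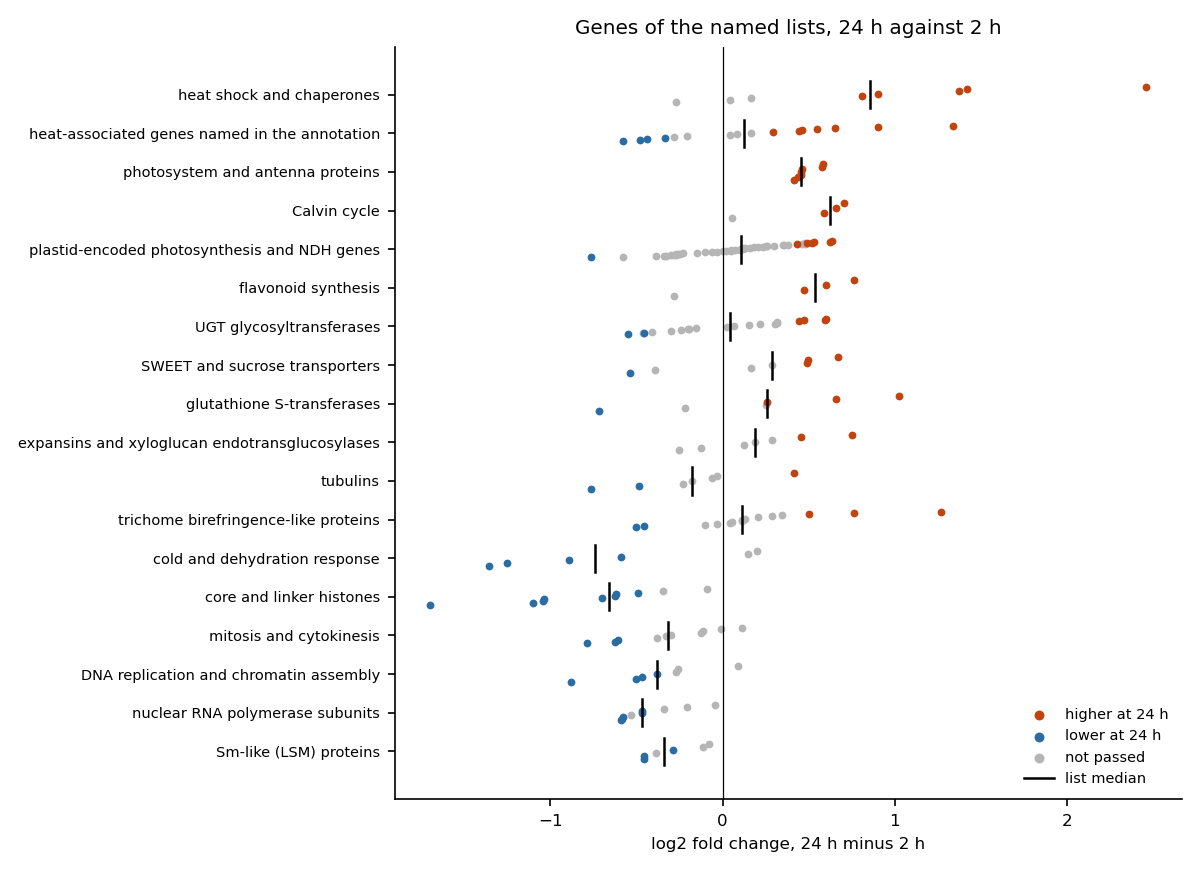
Log2 fold change, 24 h minus 2 h (x axis), of every measured gene of each list (y axis), coloured where it passed, with the list's median as a bar. The heat shock median of 0.86 is the highest of the lists drawn and the cold response median of -0.74 the lowest.

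The levels at the other times place both hours within the course. Several genes that were higher at 24 h had their lowest levels at 4 or 12 h and stayed high at 48 and 96 h. The log2 level of HYH was 5.26 ± 0.16 (2 h), 4.42 ± 0.37 (4 h), 4.62 ± 0.23 (12 h), 6.81 ± 0.17 (24 h), 7.08 ± 0.13 (48 h) and 7.12 ± 0.26 (96 h) (SD, n = 4). AT5G48570 was at 5.63 ± 0.33 (2 h), 5.44 ± 0.45 (4 h), 4.55 ± 0.14 (12 h), 8.09 ± 0.57 (24 h), 7.80 ± 0.24 (48 h) and 8.33 ± 0.38 (96 h), and the 3 samplings that lie whole days apart, 24, 48 and 96 h, thus lay between 7.80 and 8.33. MGL was at 6.19 ± 0.24 (2 h), 5.10 ± 0.26 (4 h), 4.45 ± 0.08 (12 h), 7.61 ± 0.32 (24 h), 7.38 ± 0.10 (48 h) and 7.33 ± 0.14 (96 h). Not every rise passed against 2 h at the later times. RCA at the deposited scaling had 0.21 at 48 h (adjusted p = 0.345) and 0.42 at 96 h (adjusted p = 0.0251). For psaB the values were 0.21 (adjusted p = 0.426) and 0.43 (adjusted p = 0.0505). AT1G54050 had 0.58 at 48 h (adjusted p = 0.0121) and 0.02 at 96 h (adjusted p = 0.933). PRK and HPR at the deposited scaling were still higher at 48 h than at 2 h, by 0.61 and 0.85, and both passed. The later times were not fitted with quantile normalization, so for these bright genes their direction under that scaling was not tested.

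CCL had its highest level in between, at 8.22 ± 0.42 (2 h), 9.90 ± 0.12 (4 h), 10.78 ± 0.07 (12 h), 6.54 ± 0.35 (24 h), 6.43 ± 0.23 (48 h) and 6.55 ± 0.17 (96 h) (SD, n = 4). PDC2 was also highest at 4 and 12 h, with 5.90 ± 0.10 (2 h), 7.17 ± 0.13 (4 h), 7.21 ± 0.18 (12 h), 3.80 ± 0.25 (24 h), 4.74 ± 0.72 (48 h) and 4.82 ± 0.81 (96 h), and its spread was widest at 48 and 96 h. COR15B peaked at 4 h, at 7.30 ± 0.17 (2 h), 8.73 ± 0.41 (4 h), 7.53 ± 0.25 (12 h), 6.41 ± 0.14 (24 h), 6.73 ± 0.16 (48 h) and 6.59 ± 0.13 (96 h). TUB5, at 8.53 ± 0.16 (2 h), 9.14 ± 0.14 (4 h), 9.38 ± 0.16 (12 h), 7.76 ± 0.16 (24 h), 7.60 ± 0.31 (48 h) and 7.65 ± 0.31 (96 h), was highest at 12 h.

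TBL26, EXPB1 and AT2G26690 also had their lowest levels at 12 h, and their levels at 48 and 96 h were above that at 24 h. TBL26 was at 6.83 ± 0.26 (2 h), 6.36 ± 0.58 (4 h), 5.85 ± 0.28 (12 h), 8.10 ± 0.08 (24 h), 9.03 ± 0.05 (48 h) and 8.92 ± 0.44 (96 h) (SD, n = 4). EXPB1 was at 6.36 ± 0.19 (2 h), 5.63 ± 0.13 (4 h), 4.93 ± 0.38 (12 h), 7.11 ± 0.21 (24 h), 7.46 ± 0.35 (48 h) and 8.03 ± 0.10 (96 h), and AT2G26690 at 6.46 ± 0.19 (2 h), 6.06 ± 0.15 (4 h), 5.597 ± 0.34 (12 h), 7.75 ± 0.23 (24 h), 8.20 ± 0.17 (48 h) and 8.74 ± 0.15 (96 h). HTB11 was already low at 12 h, with 8.83 ± 0.18 (2 h), 8.81 ± 0.15 (4 h), 7.85 ± 0.04 (12 h), 7.78 ± 0.23 (24 h), 8.04 ± 0.04 (48 h) and 7.73 ± 0.15 (96 h). CYP71B26, lower at 24 h than at 2 h, was lower still at 12 h: it was at 7.85 ± 0.13 (2 h), 7.995 ± 0.16 (4 h), 4.78 ± 0.12 (12 h), 6.49 ± 0.30 (24 h), 6.87 ± 0.06 (48 h) and 6.64 ± 0.29 (96 h).

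**Figure D5:**
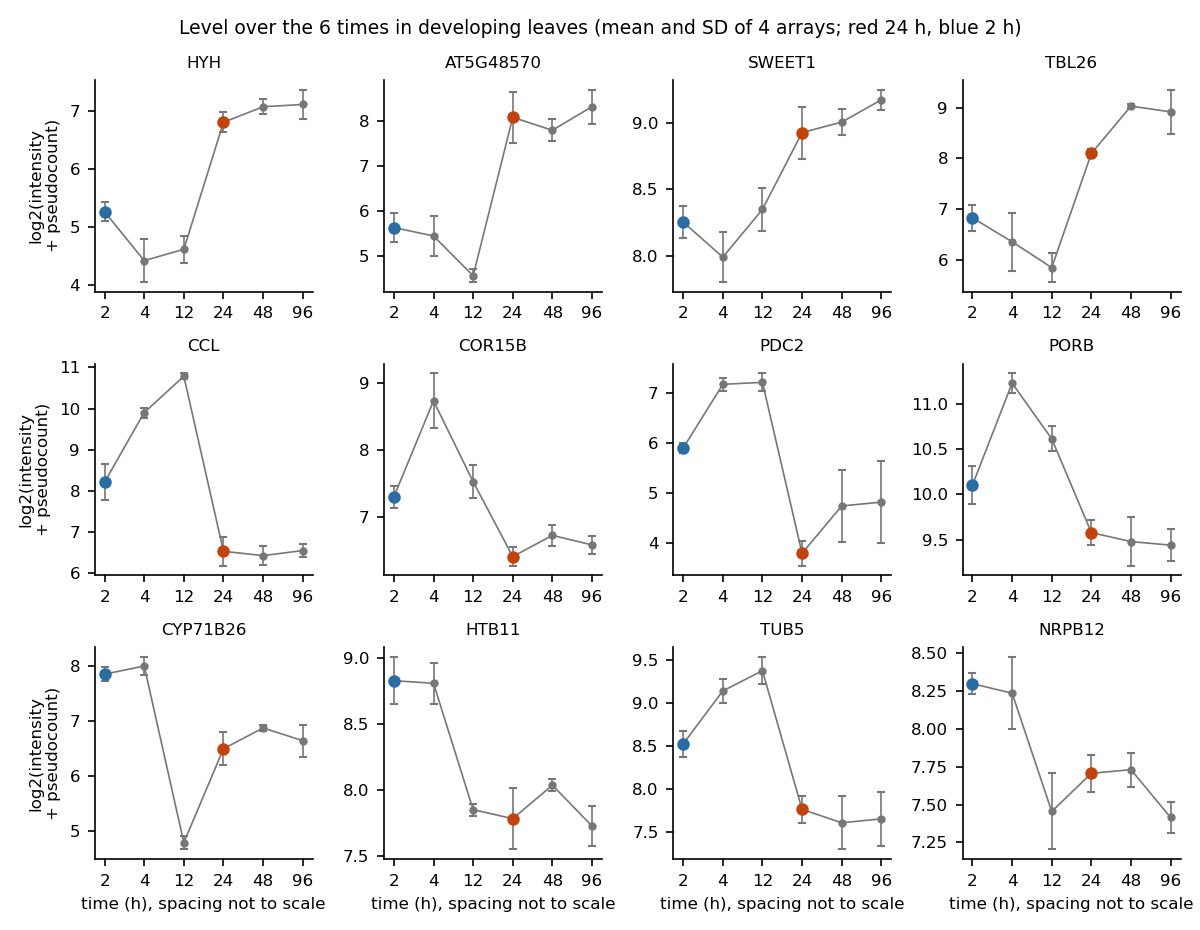
Mean log2 level and SD of 4 arrays (y axis) of 12 genes at 2, 4, 12, 24, 48 and 96 h (x axis, not to scale), with 24 h in red and 2 h in blue. CCL and TUB5 are highest at 12 h, and HYH, AT5G48570 and TBL26 are higher at 24, 48 and 96 h than at the 3 earlier times.

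Arrays outside this comparison gave the same direction for most of its probe sets. Leaves at 48 h and at 4 h share no array with those at 24 h and 2 h. Of the 1384 probe sets higher at 24 h, 1293 (93.4%) were higher at 48 h than at 4 h, and of the 1472 lower ones 1413 (96.0%) were lower. Over all 13648 tested, 74.4% had the same sign in both. Of those with at least 2-fold changes, all 77 higher and 75 of 77 lower kept their sign. At 96 h against 4 h the shares were 94.4% and 96.8%, and 76.2% over all tested. These shares describe the arrays and carry no test, since the 4 h leaves also differ from the 2 h leaves.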

How the data were processed

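The authors deposited 1 MAS5 intensity per probe set and array on a linear scale, per the submitters' processing notes, with 26 arrays of 22810 probe sets. The values of each array average 100.0 once the lowest and highest 2% are trimmed, so they were deposited scaled. The MAS5 version, background settings and detection calls are not given in the sources used here. That scaling was kept, and the number of arrays limits the precision.

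The 64 AFFX controls were left out. Values were taken as log2(intensity + 4.35), where the pseudocount is 10% of the median of all values, so folds of dim transcripts are understated. Probe sets with a mean log2 value over the 26 arrays under the 40th percentile were left out, leaving 13648. The platform annotation, updated through RefSeq TAIR10.1, gave 1 gene for 7445 of them, several for 259 and none for 5944. Probe sets without a single gene were counted, and a few with large changes are given by their ID.

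limma 3.58.1 in R 4.3.3 fitted the 7 groups of 26 arrays together; eBayes used an intensity trend, and p-values were adjusted by Benjamini-Hochberg over the 13648 (threshold 0.05). ± marks the SE of a fold change, with the spread shared by the 7 groups, or, for levels by time, the SD. The fit was tested on simulated data. Control ratios were compared with exact permutation tests over arrays.

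Members, lists and tests were chosen with earlier results of these data known. Genes named were the 25 largest rises and 25 largest falls without overlap between groups, up to 5 members of each list with 3 or more measured genes, and all measured genes of the clock, clock output, heat shock, fermentation and light signalling lists. Other named genes, among them further list members and the plastid, RNA polymerase, LSM, pentatricopeptide, TBL, serine carboxypeptidase and wider heat lists, were chosen after their values were seen. A gene with several probe sets is represented in lists by the brightest. Lists were described by counts and medians, without a test. Promoter motifs were not analysed here. No sequences were used.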

Additional observations from a re-analysis of the deposited data

Results flagged for a closer look

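In 33 of 380 groups of 4 arrays examined, for the named probe sets and the control ratios, 1 array stood apart from the other three by Dixon's test at its 95% critical value. Chance alone marks about 1 in 20 groups. Of the 33, 12 were set apart by replicate 1 at 24 h and 8 by replicate 2 at 2 h. Values are intensities.

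At 24 h, replicate 1 was far above the other three arrays for 256245_at (1208, the others 596 to 671), AT5G48570 (487, the others 203 to 235), 248332_at (396, the others 192 to 204), AT5G12110 (1092, the others 649 to 698), AT5G47610 (318, the others 190.3 to 198), NdhL (407, the others 243 to 258) and rpl33 (3211, the others 1924 to 2084). The same array was far below them for UGT78D2 (247, the others 301 to 312), SCPL49 (144, the others 216 to 235), PSF2 (42.8, the others 57.2 to 60.6), AT3G09480 (24.3, the others 28.5 to 29.2) and AT2G47890 (6.96, the others 34.9 to 44.6). Replicate 3 at 24 h was far below for 247780_at (70.02, the others 92.3 to 96.3). Replicate 4 at 24 h was far below for CYP71B22 (74.7, the others 111 to 114), WRKY22 (21.3, the others 36.95 to 40.5), TBL39 (48.6, the others 84.1 to 87.4), RECQ4A (27.3, the others 51.04 to 57.03) and 266412_at (8.74, the others 27.1 to 31.8).

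At 2 h, replicate 2 was far below the other three for psaB (1999, the others 2684 to 2775), atpB (2547, the others 3240.0 to 3342), LHCB4.1 (2396, the others 2846 to 2923) and ATPC1 (1683, the others 1862 to 1868). It was far above them for Fes1A (143, the others 105 to 110.0), TBL41 (80.6, the others 59.3 to 61.2), LTI30 (69.8, the others 42.5 to 45.9) and PDC2 (61.9, the others 52.6 to 53.9). Replicate 3 at 2 h was far above for PDF1.2b (696, the others 50.6 to 57.2), PDF1.2 (579, the others 49.1 to 64.5) and THI2.1 (86.2, the others 34.5 to 35.9). It was far below for 266226_at (225, the others 343 to 364). Replicate 1 at 2 h was below for ATHSP22.0 (30.9, the others 31.7 to 31.8). Replicate 4 at 2 h was far below for TBL26 (82.8, the others 118 to 122). It was far above for TUB7 (527, the others 451 to 461). The 3 probe sets of the jasmonate-response genes PDF1.2, PDF1.2b and THI2.1 were thus set apart by the same array at 2 h. Whether those of PDF1.2 and PDF1.2b read separate transcripts was not tested.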

How the results depend on the processing

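The count of 2856 probe sets stayed within 1.5 times under all 18 other settings chosen at the outset and 1 chosen after seeing the data: 2820 with a pseudocount of 1, 2919 with 21.7, 2728 without the filter, 2471 with the filter at the 60th percentile, 2738 with quantile normalization, 2028 with the arrays of the 2 groups only, 2779 with array weights, 2781 without the intensity trend and 2301 with the actin ratio as a covariate. Without any 1 of the 8 arrays it ran from 2051 (without 2 h replicate 2) to 2825, with 981 to 1319 higher and 1070 to 1506 lower. The setting chosen later, without 24 h replicates 1 and 2 together, gave 1969. The difference in the actin ratio ran from -0.68 to -0.38 with 1 array left out, in the GAPDH ratio from -0.13 to 0.18 and in the ubiquitin ratio from -0.01 to 0.16.

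Of 187 named probe sets 139 passed, and 93 of these did so under every alternative in which they were tested. The other 46 lost their call under at least 1, and 29 of them without at least 1 single array. A further 16 that did not pass gained a call under some alternative. With quantile normalization atpB was at -0.0512 and LHCB4.1 at -0.0312, opposite in sign to the deposited scaling. Quantile normalization by construction gives the bright end of every array the same values. Depth has no counterpart on these arrays, and dim transcripts such as PDC2 at 24 h have folds set partly by the pseudocount.

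With the replicate block, 3343 probe sets passed, 1581 higher and 1762 lower. Same-numbered arrays at 24 h and 2 h deviated from their group means with correlations of 0.356, 0.033, 0.109 and 0.119. Replicates 1, 3 and 4 at 24 h correlated best with their own number at 2 h and replicate 2 with number 3. The codes in the sample titles also run in sequence within each replicate number, but the labels do not say what the codes stand for. Both are hints only. Since the labels give no shared origin and 1 of the 4 correlations is under 0.1, the numbers were not taken to pair the arrays.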
